A study of Mus musculus with 2 samples.

Results

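Natural killer (NK) cells and the related group 1 innate lymphoid cells (ILC1s) of mouse adipose tissue were described here. The cells used showed no transcript of 3 Ly49 receptor genes. The cells are those that the authors' deposited clustering, at resolution 0.5, placed in cluster 1 and that had 0 unique molecular identifiers (UMIs, each counting 1 captured RNA molecule) of Klra4, Klra8 and Klra9. They numbered 553 of 10159 cells: 256 of 4545 in the library from mice on chow and 297 of 5614 in the library from mice on a ketogenic diet. The other 1233 cells of cluster 1, with at least 1 UMI of the 3 genes, are called Ly49-positive. Both the cluster and the split come from the measured RNA, so every contrast with Ly49-positive or other cells is a description of these cells and carries no test.

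Both libraries came from adult wild-type C57BL/6 mice and held CD45+ cells resident in adipose tissue, told apart from blood cells by an intravenous label. Mice ate chow (the control) or the ketogenic diet for 1 week, and each diet had 1 library. The labels give neither the age beyond adult nor the number of mice per library, so no difference between diets could be set against the spread between animals. Levels are given as CPM, the UMIs of a gene summed over a group of cells and scaled so that all UMIs of the group sum to 1000000. Values in parentheses after a level, share or fold are 95% intervals for counting error only. The study's title asks how ketogenesis affects γδ T cells in visceral fat, and the libraries hold the other resident immune cells measured with them.

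NK cells and ILC1s are innate lymphocytes that share the receptors Nkp46 (Ncr1) and NK1.1 (Klrb1c) and the transcription factor T-bet (Tbx21). Circulating NK cells also use Eomes and carry granzymes and perforin, whereas ILC1s stay in tissues and often carry Cxcr6 and the interleukin-7 receptor. Ly49 receptors, encoded by the Klra genes, bind class I major histocompatibility molecules, and each NK cell switches on its own subset of them, so a cell without one may still be an NK cell. In fat, NK cells and ILC1s are known as sources of interferon-γ that acts on macrophages.

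The Ly49-negative cells made up 35.4% (31.9 to 39.0) of cluster 1 in the chow library and 28.0% (25.3 to 30.8) in the ketogenic library, a ratio of 0.791 (0.667 to 0.939). Of all clustered cells they made up 5.74% (5.08 to 6.47) and 5.34% (4.77 to 5.97), a ratio of 0.930 (0.785 to 1.1). Ly49-positive cells went from 10.5% to 13.8% of clustered cells, a ratio of 1.31 (1.17 to 1.47). The Ly49-negative share of the clustered cells therefore differed by less than its counting error over all depths. Among clustered cells of at least 3000 UMIs alone it was 1.72% on chow and 5.2% on the ketogenic diet, a ratio of 3.02, so its direction depended on which depths were counted. The lower share within cluster 1 went with the larger number of Ly49-positive cells. Median depth was 2440 UMIs per Ly49-negative cell on chow and 3333 on the ketogenic diet, against 2251.5 and 3098 per Ly49-positive cell.

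A count of 0 depends on depth, so the share was also read by depth. In tertiles of cluster 1 by UMIs per cell, Ly49-negative cells were 29.8%, 31.1% and 45.2% from shallow to deep on chow, and 22.6%, 27.1% and 34.2% on the ketogenic diet. The share was higher in the deepest tertile of both libraries. At matched depth it was 46.5% (39.6 to 53.4) of 213 chow cells with 2501 to 3469 UMIs and 25.8% (22.0 to 29.8) of 508 ketogenic cells with 2500 to 3498 UMIs. Under 2500 UMIs it was 29.2% (25.1 to 33.6) and 20.9% (15.2 to 27.5), and in deeper cells 44.9% (30.7 to 59.8) of 49 with 3547 to 16664 UMIs and 34.4% (29.6 to 39.5) of 372 with 3501 to 11886 UMIs, with overlapping intervals in both. With each cell thinned to 1000 UMIs, 48.2% and 41.7% of cluster 1 would have shown none of the 3 genes, a ratio of 0.865 between the libraries.

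**Figure D1:**
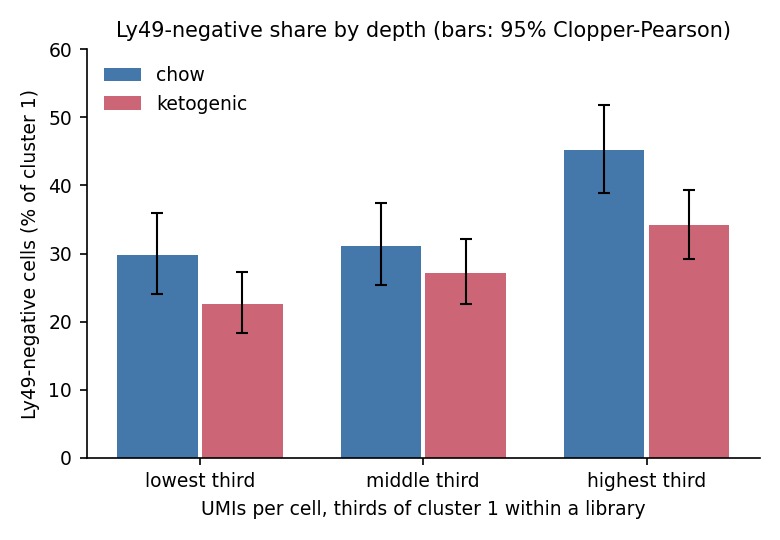
Share of cluster 1 cells with 0 UMIs of Klra4, Klra8 and Klra9 (y axis, percent) in tertiles of the cluster ordered by UMIs per cell within each library (x axis), with 95% Clopper-Pearson intervals. The share runs from 29.8% to 45.2% on chow and from 22.6% to 34.2% on the ketogenic diet, and chow is the higher bar in each tertile.

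Just outside the rule, 83 cells of each library had exactly 1 UMI of the 3 genes. Just inside it, 71 of 256 chow cells (27.7%) and 83 of 297 ketogenic cells (27.9%) had UMIs of some other Ly49 gene, so the group is negative for 3 genes and not for the whole family. Klra7, which encodes the receptor Ly49G, was the main one: its level in the Ly49-negative cells was 144 (117 to 176) CPM on chow and 194 (168 to 223) CPM on the ketogenic diet, against 626 and 691 CPM in Ly49-positive cells. Klra3 stood at 75.7 and 75.7 CPM against 200.1 and 201 CPM, and Klra1 at 37.1 and 42.7 against 92.5 and 143 CPM. Klra5 and Klra6 had only 5 and 3 UMIs on chow and 15 and 5 on the ketogenic diet. These genes lie together on chromosome 6 (GRCm38; Klra4 at chr6:130043731-130067271, Klra8 at chr6:130115226-130129898, Klra9 at chr6:130178675-130193112, all on the minus strand). Some of their transcripts are near copies: the longest annotated ones aligned at 96.2% identity for Klra3 and Klra9 and 93.1% for Klra8 and Klra9, but at 82.3% for Klra4 and Klra8 and 79.5% for Klra4 and Klra9. Reads of the closest members may therefore have been assigned to another or dropped, and single Klra values are uncertain.

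The cells carried their stated markers. Ncr1 stood at 561 (506 to 621) CPM on chow and 801 (747 to 857) CPM on the ketogenic diet. Xcl1, a chemokine that draws cross-presenting dendritic cells, stood at 1265 (1182 to 1353) and 1541 (1466 to 1618) CPM. Klrc1, the inhibitory receptor NKG2A, stood at 423 and 579.6 CPM, Klrb1b at 322 and 317 CPM, and Cd7 at 506 and 759 CPM. All 5 were lower in cluster 6, the Xcr1+ and Clec9a+ dendritic cells, where Ncr1 was 11.5 and 12.1 CPM and Xcl1 11.9 and 14.9 CPM. Of single cells, 73.8% and 88.6% of the Ly49-negative cells had an Ncr1 UMI, against 7.82% and 9.01% in cluster 6 at median depths of 7906 and 9922 UMIs. Thinned to 1000 UMIs these shares were 44.4% and 54.1% against 1.12% and 1.18%. Klrb1b was the least apart from cluster 6, with a UMI in 52.0% and 59.6% of Ly49-negative cells against 35.2% and 29.0% there, and 27.0% and 27.2% against 6.50% and 4.31% thinned. Cluster 4, whose cells nearly all had a Cd3 transcript, was closer for Xcl1 and Cd7. Xcl1 was seen in 83.2% and 91.2% of Ly49-negative cells against 75.1% and 79.8% there, and Cd7 in 59.0% and 74.1% against 54.3% and 72.6%. Klrc1 (32.7% and 40.2%), Ncr1 (23.4% and 38.4%) and Klrb1b (7.81% and 8.35%) were rarer in cluster 4.

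The 15 genes that stood farthest above all other clustered cells in both libraries were Klrb1b, Klrc1, Ncr1, Xcl1, Klrb1a, Car2, Klrb1f, Klrb1c, Arl4d, Samd3, Cd7, Spry2, Serpinb9, Tbx21 and Ctsw. These chose the cluster and are listed as its description. Ncr1 was 3.67 and 2.75 higher on the log2 scale, and Tbx21 3.09 and 2.02. The ILC1 part of the name rests on less. Itga1 (CD49a), a defining ILC1 integrin, had 11 and 9 UMIs in all Ly49-negative cells (16.3 and 8.74 CPM, against 12.4 and 7.41 CPM in Ly49-positive cells), and Zfp683 (Hobit) had 3 and 2. All 9 ILC1 markers were nevertheless higher in Ly49-negative than in Ly49-positive cells in both libraries, against 29.2% of all genes of at least 10 UMIs. The markers were chosen with earlier results of these data known, so this direction is no independent evidence. Their summed level was 1553 CPM on chow and 1704 CPM on the ketogenic diet, against 696 and 719 CPM. The summed level was as high or higher in ILC2-rich cluster 0 (3384 and 3574 CPM), so those markers do not set ILC1s apart from other innate lymphocytes.

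Markers of other cells were looked at in the same way. T cell markers summed to 1218 CPM on chow and 1639 CPM on the ketogenic diet in Ly49-negative cells, near the 1219.9 and 1477 CPM of Ly49-positive cells and below the 4980.2 and 6218 CPM of cluster 4, whose cells nearly all had a Cd3 UMI. Cd4, Cd8a, Cd8b1 and Cd5 had 0 to 6 UMIs each in a library. A UMI of Cd3e, Cd3d or Cd3g was present in 15.2% and 23.2% of Ly49-negative cells, 17.3% and 25.9% of Ly49-positive cells, 94.8% and 99.0% of cluster 4 and 19.2% and 36.6% of cluster 6. Thinned to 1000 UMIs these were 9.12% and 11.7%, 10.2% and 12%, 85.0% and 90.3%, and 3.03% and 7.50%, so the Ly49-negative cells stood above the dendritic cell background and near the Ly49-positive cells. ILC2 markers summed to 316 and 332 CPM against 5127 and 4765 CPM in cluster 0, with Il17rb at 0 UMIs in both libraries. ILC3 markers summed to 11.9 and 7.77 CPM, with Ccr6 at 0 in both. Macrophage or monocyte markers summed to 2137 CPM on chow and 309.7 CPM on the ketogenic diet, and differed the same way in Ly49-positive cells (1213 and 161 CPM) and cluster 4 (2323 and 166 CPM). Dendritic markers summed to 4909.5 and 2618 CPM in Ly49-negative cells and 2868 and 1328 CPM in Ly49-positive cells. Of 8 such markers 6 were higher in Ly49-negative cells in both libraries, mostly Cd74, H2-Aa and H2-Ab1. Over all genes of at least 10 UMIs, 29.2% were higher in both. Flt3 had 2 and 1 UMIs. B cell markers summed to 2039 and 1727 CPM, almost all from immunoglobulin genes, and were near the values of all other clusters named here. Neutrophil, mast cell and basophil markers were at 20.8 and 3.88 CPM, and those of stromal, endothelial, fat and red blood cells at 23.8 and 23.3 CPM.

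Both libraries hold 41 cell barcodes in common, and 8 Ly49-negative cells carry 1 of them. Cells that stood apart were few: 3 Ly49-negative cells in each library had over 1% of their UMIs in Cd74, H2-Aa, H2-Ab1 and Lyz2, and 4 of these 6 had 10668 to 16664 UMIs with 5.78% to 7.19% in the 4 genes. Without the cells over 1% in both subsets, the macrophage or monocyte sums were 1130 CPM on chow and 150 CPM on the ketogenic diet in Ly49-negative cells, against 1164 and 161 CPM in Ly49-positive cells, and the dendritic sums 2575 and 1314 against 2720 and 1310 CPM. Of 8 dendritic markers 2 were then higher in Ly49-negative cells in both libraries, 2 lower and 4 mixed, against 29.2% higher and 26.1% lower over all genes. The higher sums of Ly49-negative cells for both lists therefore rested on these few cells. The chow library held 21570910 UMIs in 4545 cells and the ketogenic library 26041785 in 5614.

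Relative to Ly49-positive cells, the Ly49-negative cells had higher Gpr183, Il7r, Rora, Tmem176a, Tmem176b and Cxcr6 and lower Gzma, Eomes and Khdc1a, each at least 2-fold apart in both libraries. Among 5061 genes with at least 100 UMIs in cluster 1, 17 (0.336%) were at least 2-fold higher in Ly49-negative cells in both libraries and 26 (0.514%) at least 2-fold lower. The median log2 ratio over all these genes was -0.01 in each library. Among cells of at least 3000 UMIs alone, 18 genes were 2-fold higher and 14 lower, of which 6 and 13 were among the first 17 and 26.

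Among the higher genes, Gpr183 (EBI2), a receptor for oxysterols that guides lymphocytes within tissues, stood at 141 (114 to 172) CPM on chow and 145 (122 to 169.8) CPM on the ketogenic diet, against 24 (15.8 to 34.9) and 37 (30 to 45.3) CPM. This is 5.88-fold (3.8 to 9.38) and 3.9-fold (3.0 to 5.11). Il7r, the interleukin-7 receptor chain, stood at 80.2 and 61.2 CPM against 25.8 and 21.1 CPM, or 3.11-fold (1.95 to 5.07) and 2.9-fold (1.99 to 4.26). Cxcr6, the receptor for the chemokine Cxcl16 found on tissue-resident lymphocytes, stood at 77.2 and 131 CPM against 33.8 and 53.4 CPM, or 2.29-fold (1.48 to 3.57) and 2.45-fold (1.92 to 3.13). For each of these genes the folds of both libraries had overlapping intervals. Among cells of at least 3000 UMIs the log2 ratio of Cxcr6 was 0.97 on the ketogenic diet, just under 2-fold.

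Tmem176b and Tmem176a encode paired membrane proteins of intracellular compartments and are often high in innate lymphocytes with Rora. Tmem176b stood at 587 (530.2 to 647) and 579 (533 to 627) CPM against 200.1 (175 to 228) and 221 (204 to 240.5) CPM, or 2.93-fold (2.48 to 3.47) and 2.61-fold (2.32 to 2.94). Tmem176a was 2.45-fold (2.02 to 2.98) and 2.87-fold (2.47 to 3.32) higher, and Rora, a nuclear receptor needed for ILC2s, 2.94-fold (1.68 to 5.29) and 2.65-fold (1.85 to 3.78) higher. Among cells of at least 3000 UMIs Tmem176b kept log2 ratios of 1.17 and 1.09, and Tmem176a was at 0.85 on chow and 1.18 on the ketogenic diet. The 2 Tmem176 genes lie head to head on chromosome 6 (GRCm38 chr6:48840919-48847071 and chr6:48833818-48841496), on opposite strands with overlapping start regions.

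The remaining leading genes included Nebl, St6galnac3, Ahcyl2, Ctla4 and Lyz1. Ctla4, an inhibitory receptor best known from T cells, was at 56.4 and 44.7 CPM against 17.8 and 19.5 CPM. Among cells of at least 3000 UMIs the log2 ratios of Ctla4 on the ketogenic diet and Ahcyl2 on chow were 0.65 and 0.67. Nebl, which encodes nebulette, had 17 and 51 UMIs in Ly49-negative cells against 3 and 33, giving 9.46-fold (2.74 to 50.4) and 3.85-fold (2.44 to 6.15). Lyz1, a lysozyme of myeloid and Paneth cells, had log2 ratios of 1.42 and 1.18, which became 0.21 and 0.92 without the cells over 1% myeloid UMIs.

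**Figure D2:**
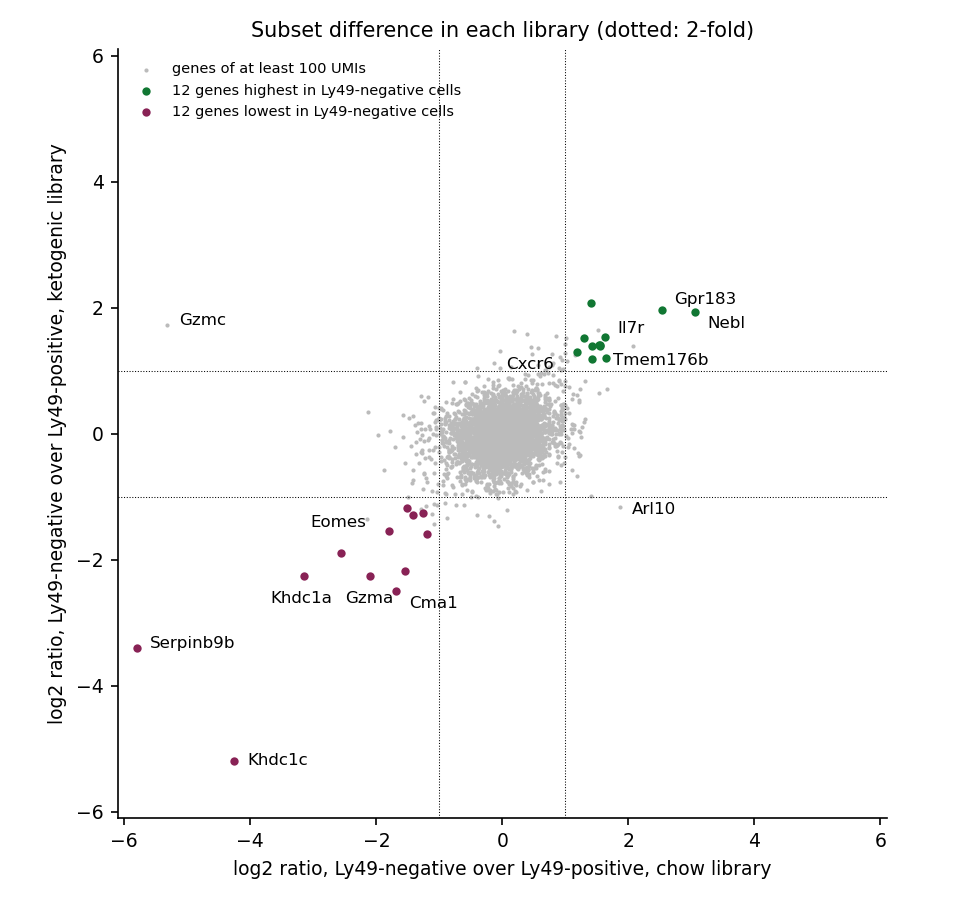
Log2 ratio of each gene in Ly49-negative over Ly49-positive cells in the chow library (x axis) and the ketogenic library (y axis), for genes of at least 100 UMIs other than Klra genes, with the 12 highest and 12 lowest in color and dotted lines at 2-fold. Gpr183 lies at 2.54 and 1.96, Gzma at -2.09 and -2.25, and Gzmc and Arl10 are the 2 genes past 2-fold in opposite directions; Gzmc and Serpinb9b had 0 UMIs in Ly49-negative chow cells, so their x positions depend on the 0.5 added to each count.

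Of the 18 ILC1 genes with at least 10 UMIs, 13 were higher in both libraries, 1 (Cd69) was lower in both and 4 differed in sign, with 6 at least 2-fold higher. Among all 10131 genes at that minimum, 29.2% were higher in both, 26.1% lower in both, and 1.3% at least 2-fold higher in both. The median log2 ratio of the list was 0.87 on chow and 1.12 on the ketogenic diet, against 0.00 and 0.02 for all genes. Ltb, which encodes lymphotoxin β, was 1.51-fold (1.23 to 1.84) and 1.88-fold (1.66 to 2.14) higher, and Ikzf2 (Helios) had log2 ratios of 0.91 and 1.22. Cd200r1, an inhibitory receptor, had 0.93 and 1.02. The list was assembled with earlier results of these cells known, so its direction is no independent evidence.

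The genes of mature NK cells ran the other way. Gzma, the granzyme A protease, stood at 909 (838 to 984) CPM on chow and 677 (627 to 729) CPM on the ketogenic diet in Ly49-negative cells, against 3881 (3767 to 3998) and 3231 (3162 to 3301) CPM, so Ly49-positive cells were 4.27-fold (3.92 to 4.66) and 4.78-fold (4.42 to 5.17) higher. Eomes, the T-box factor that separates NK cells from most ILC1s, stood at 32.7 (20.5 to 49.5) and 48.5 (36 to 64) CPM against 116 (96.6 to 137) and 144 (129 to 159) CPM, or 3.54-fold (2.24 to 5.84) and 2.96-fold (2.2 to 4.06) higher in Ly49-positive cells. Its relative Tbx21, which both cell types need, was at 149 and 144 CPM against 121 and 119 CPM, within counting error in both libraries. Prf1, the pore-forming perforin, was at 23.8 and 25.2 CPM against 52.5 and 62.4 CPM.

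Itgam (CD11b), an integrin of mature NK cells, was 2.16-fold (1.43 to 3.35) and 2.77-fold (1.68 to 4.82) higher in Ly49-positive cells, and Cma1, a mast cell protease gene that NK cells also transcribe, 3.27-fold (2.06 to 5.41) and 5.82-fold (3.51 to 10.4) higher. Sh2d1a, the adaptor SAP of SLAM-family receptors, was 2.41-fold (1.78 to 3.3) and 2.41-fold (1.92 to 3.06) higher. Prdm1 (Blimp-1), Scimp, Wdr95 and the receptor gene Klri2 were also among the lowest, with log2 ratios from -1.19 to -2.57. Among cells of at least 3000 UMIs the chow ratios of Prdm1 and Scimp were -0.37 and -0.33.

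The lowest ratios belonged to scarce transcripts. Khdc1a had 10 and 21 UMIs in Ly49-negative cells against 155 and 256, which made Ly49-positive cells 9.28-fold (4.91 to 19.7) and 4.9-fold (3.14 to 8.05) higher. Khdc1c, its neighbouring family member, had 2 and 1 UMIs against 79 and 136, a ratio of 23.7-fold (6.33 to 199) and 54.6-fold (9.64 to 2173). Serpinb9b, a serine protease inhibitor, had 0 UMIs on chow against 46, which makes it at least 9.18-fold higher in Ly49-positive cells with 3 counts as the limit over the group, and 5 against 145 on the ketogenic diet. Genes of the Khdc1 and Serpinb9 families have close copies, so reads shared between copies make these values uncertain.

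**Figure D3:**
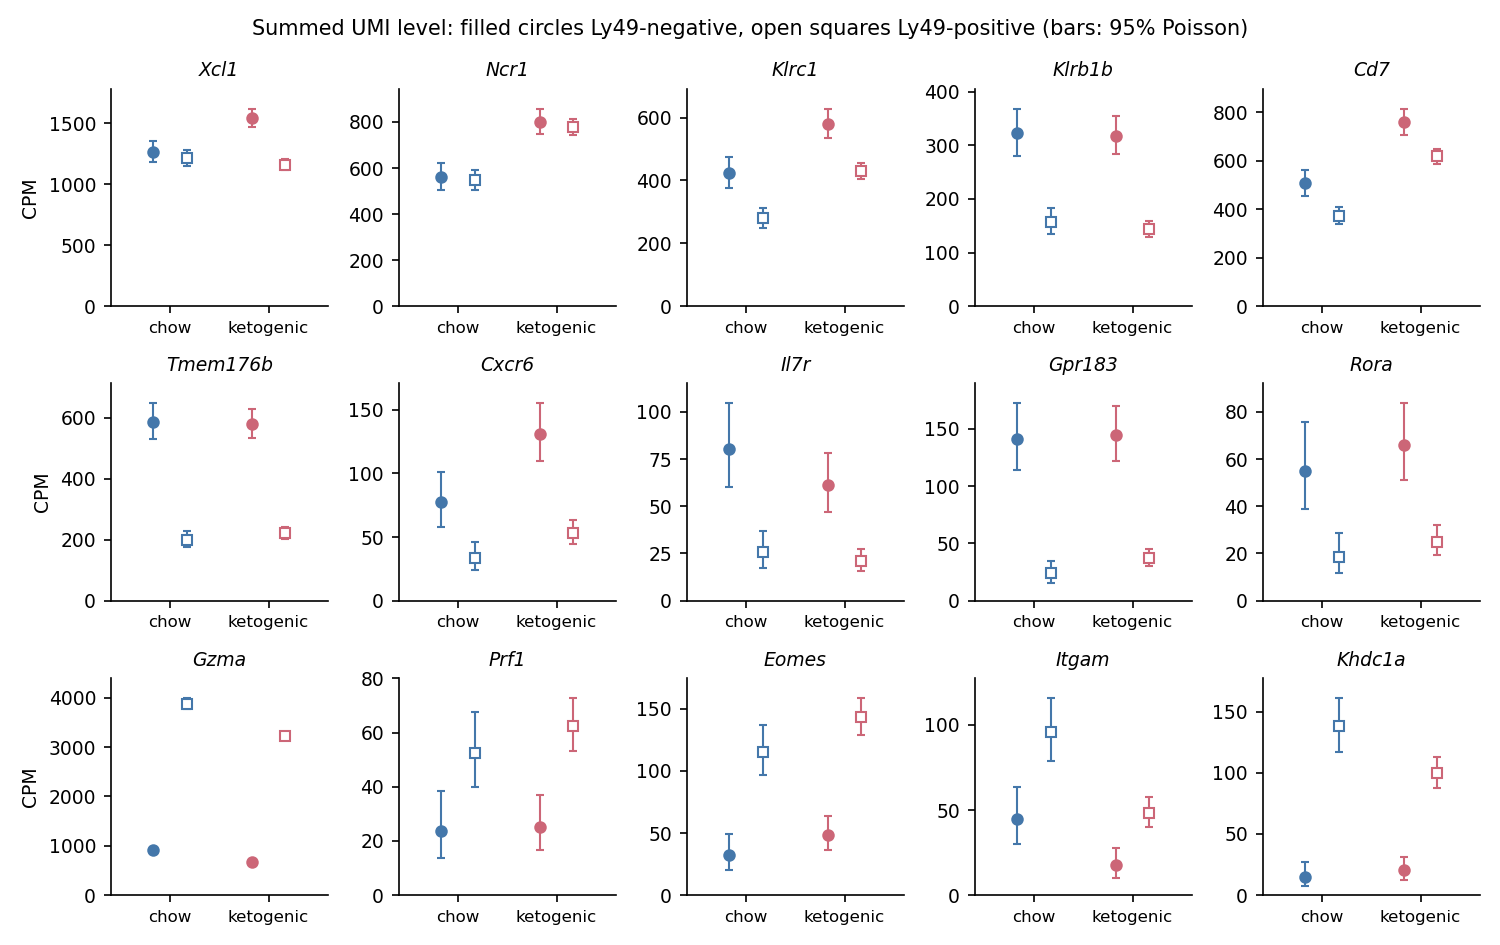
Summed level in CPM (y axes from 0) of 15 genes in Ly49-negative (filled circles) and Ly49-positive cells (open squares) of the chow (blue) and ketogenic (red) libraries, with 95% Poisson intervals. Ncr1 is level between the subsets, Tmem176b is 587 against 200.1 CPM on chow, and Gzma is 909 against 3881 CPM.

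Of 16 mature NK genes, 13 were lower in both libraries, 3 higher in both and none of mixed sign, with 6 at least 2-fold lower against 1.2% of all genes. The median log2 ratio was -0.90 on chow and -1.08 on the ketogenic diet. The 3 higher genes were Ly6c2 (0.40 and 0.53), Emb (0.48 and 0.69) and Cx3cr1, the last with 6 and 1 UMIs. Of 14 cytotoxic granule genes, 11 were lower in both libraries, 1 (Srgn, the granule proteoglycan serglycin) higher in both and 2 of mixed sign, against 26.1% lower and 29.2% higher in both over all genes of at least 10 UMIs, with medians of -0.47 and -0.30. Gzmb, granzyme B, was 2.69-fold (2.21 to 3.29) higher in Ly49-positive cells on chow and 1.68-fold (1.5 to 1.89) on the ketogenic diet. Nkg7, a granule membrane protein, was 1.42-fold (1.35 to 1.5) and 1.46-fold (1.41 to 1.52) higher there.

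Promoters are shown for genes of each direction: Gzma and Prf1, which were lower, Ncr1 and Xcl1, which were less than 1.5-fold apart between the subsets, and Tmem176b, which was higher. They were searched for the cores of T-box and Runx factors, families that act in NK cells. Sequences are RefSeq windows from 250 bases before to 50 after a transcript start on GRCm38.p6, 5′ to 3′ on the gene's strand, in lower case. Capitals mark the letters AGGTGT (a T-box core) or TGTGGT (a Runx core) on either strand, so that ACACCT and ACCACA are the same motifs read on the other strand.
Gzma (chr13:113100932-113101231, minus strand): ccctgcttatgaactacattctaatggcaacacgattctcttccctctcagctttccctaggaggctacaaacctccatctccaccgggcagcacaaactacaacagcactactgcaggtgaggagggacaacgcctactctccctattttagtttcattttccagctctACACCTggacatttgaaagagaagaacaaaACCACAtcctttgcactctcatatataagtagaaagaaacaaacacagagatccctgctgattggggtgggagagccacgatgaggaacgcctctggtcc
Prf1 (chr10:61297586-61297885, plus strand): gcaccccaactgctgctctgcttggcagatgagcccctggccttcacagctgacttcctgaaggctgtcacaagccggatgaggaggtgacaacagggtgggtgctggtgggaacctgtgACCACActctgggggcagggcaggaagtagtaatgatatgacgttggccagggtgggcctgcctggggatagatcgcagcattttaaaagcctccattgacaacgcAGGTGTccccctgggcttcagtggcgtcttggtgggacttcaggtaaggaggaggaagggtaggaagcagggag
Ncr1 (chr7:4337465-4337764, plus strand): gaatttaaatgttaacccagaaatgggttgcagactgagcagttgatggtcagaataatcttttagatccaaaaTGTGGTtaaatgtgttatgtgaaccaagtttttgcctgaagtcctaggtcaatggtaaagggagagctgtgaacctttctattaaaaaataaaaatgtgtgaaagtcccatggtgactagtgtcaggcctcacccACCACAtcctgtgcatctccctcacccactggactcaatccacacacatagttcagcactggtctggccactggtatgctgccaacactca
Xcl1 (chr1:164935473-164935772, minus strand): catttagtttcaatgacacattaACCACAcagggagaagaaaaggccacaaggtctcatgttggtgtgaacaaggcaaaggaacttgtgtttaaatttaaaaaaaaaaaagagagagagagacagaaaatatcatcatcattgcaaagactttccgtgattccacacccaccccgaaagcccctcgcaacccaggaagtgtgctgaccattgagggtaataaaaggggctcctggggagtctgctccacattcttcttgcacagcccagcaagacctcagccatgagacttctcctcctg
Tmem176b (chr6:48841325-48841624, minus strand): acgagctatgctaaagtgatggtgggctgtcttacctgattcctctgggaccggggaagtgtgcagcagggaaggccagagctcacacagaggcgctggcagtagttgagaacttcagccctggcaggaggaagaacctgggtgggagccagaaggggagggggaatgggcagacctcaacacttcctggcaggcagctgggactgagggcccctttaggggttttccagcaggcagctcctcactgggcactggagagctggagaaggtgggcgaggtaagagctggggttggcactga
The Gzma and Prf1 windows each hold 1 T-box core and 1 Runx core, the Ncr1 window 2 Runx cores, the Xcl1 window 1 Runx core and the Tmem176b window none of them. Of 32851 RefSeq promoter windows of this length, 13.7% hold AGGTGT and 16.8% TGTGGT on either strand. The Tmem176b window shares 208 bases with that of Tmem176a. Among the other genes looked up, the lower genes Eomes and Itgam had neither core and Cma1 a Runx core alone, while the higher genes Il7r and Cxcr6 held a Runx core and Gpr183, Rora and Tmem176a neither. A match is a string of letters in a window and was not measured as a bound site.

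Receptors outside the Ly49 family differed less. Ncr1 stood at 561 CPM on chow and 801 CPM on the ketogenic diet against 547 and 779 CPM in Ly49-positive cells, a ratio of 1.03-fold (0.901 to 1.17) and 1.03-fold (0.947 to 1.12). Klrk1, the activating receptor NKG2D, had log2 ratios of 0.04 and 0.02. Klrc1 was 1.51-fold (1.28 to 1.78) and 1.35-fold (1.22 to 1.49) higher in Ly49-negative cells. Klrb1b, an inhibitory receptor for Clec2d, was 2.05-fold (1.67 to 2.51) and 2.22-fold (1.91 to 2.58) higher, the one member of its list at least 2-fold higher in both libraries. Klrd1 (CD94), the partner chain of NKG2A, was 1.48-fold (1.33 to 1.66) and 1.5-fold (1.38 to 1.62) higher in Ly49-positive cells, and the signalling adaptor Tyrobp (DAP12) 1.55-fold (1.46 to 1.63) and 1.49-fold (1.43 to 1.55). Of 22 such receptors and adaptors, 8 were higher in both libraries, 10 lower in both and 4 mixed, against 29.2% higher and 26.1% lower in both over all genes of at least 10 UMIs, with medians of -0.10 and -0.13.

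Chemokine and cytokine genes differed by less than 2-fold where named here. Xcl1 was 1.04-fold (0.957 to 1.14) higher in Ly49-negative cells on chow and 1.33-fold (1.25 to 1.41) on the ketogenic diet. Ifng stood at 108 and 126 CPM against 100.5 and 120.1 CPM, and Ccl5 was 1.48-fold (1.44 to 1.53) and 1.47-fold (1.43 to 1.5) higher in Ly49-positive cells. The next counts stand against 29.2% higher, 26.1% lower, 1.3% at least 2-fold higher and 1.2% at least 2-fold lower in both libraries over all genes of at least 10 UMIs. Of 14 chemokines and cytokines, 4 were higher in both libraries, 4 lower and 6 mixed, close to those shares. Of 16 cytokine receptors, 4 were higher, 3 lower and 9 mixed, and Il7r was the 1 at least 2-fold apart. Of 23 lineage transcription factors, 8 were higher and 10 lower in both, with Rora at least 2-fold higher and Eomes and Prdm1 at least 2-fold lower. Of 19 genes of tissue retention and exit, 7 were higher and 9 lower. Among them Itgb7, the integrin β7 chain, was 1.79-fold (1.46 to 2.2) and 1.71-fold (1.48 to 1.98) higher, and S1pr5, the lipid receptor by which NK cells leave tissues, had 2 and 2 UMIs, 5.39-fold (1.29 to 47.9) and 8.64-fold (2.25 to 73.6) lower than in Ly49-positive cells.

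The Ly49-negative cells were not uniform. In the 185 chow and 214 ketogenic cells with no Ly49 UMI at all, Gzma was at 568 and 398 CPM, and in the 71 and 83 cells with UMIs of another Ly49 gene at 1831 and 1396 CPM. Tmem176b ran the other way, at 741 and 694 CPM without and 170.4 and 281 CPM with another Ly49 gene. Eomes was at 20.3 (9.76 to 37.4) and 35 (22.9 to 51.3) CPM without and 66 (34.1 to 115) and 83.3 (53.4 to 124) CPM with one. The cells with another Ly49 gene thus sat between the fully Ly49-negative and the Ly49-positive cells for Gzma and Eomes in both libraries, and their Eomes intervals overlapped those of the fully Ly49-negative cells on chow alone.

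Across cluster 1 the same genes graded with the count of the 3 rule genes. Gzma was at 2722 CPM on chow and 1459.9 CPM on the ketogenic diet in cells with 1 UMI, 3444 and 2181 with 2 to 4, and 4696 and 3881 with 5 or more. Cells with 1 UMI had Tmem176b at 339 and 521 CPM, above the 120.4 and 126 CPM of cells with 5 or more. Ly49-negative cells with another Ly49 gene broke this order, with Tmem176b at 170.4 (116 to 242) and 281 (223 to 349) CPM. Their Eomes on the ketogenic diet was 83.3 CPM, above the 52.8 CPM of cells with 1 UMI, with overlapping intervals. Gpr183 was 157 and 177 CPM in the fully Ly49-negative cells, 38.3 and 49 CPM with 1 UMI and 16.1 and 31.2 CPM with 5 or more. Ncr1 showed no order, at 492 to 575 CPM on chow and 761 to 894 CPM on the ketogenic diet over the 5 classes.

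**Figure D4:**
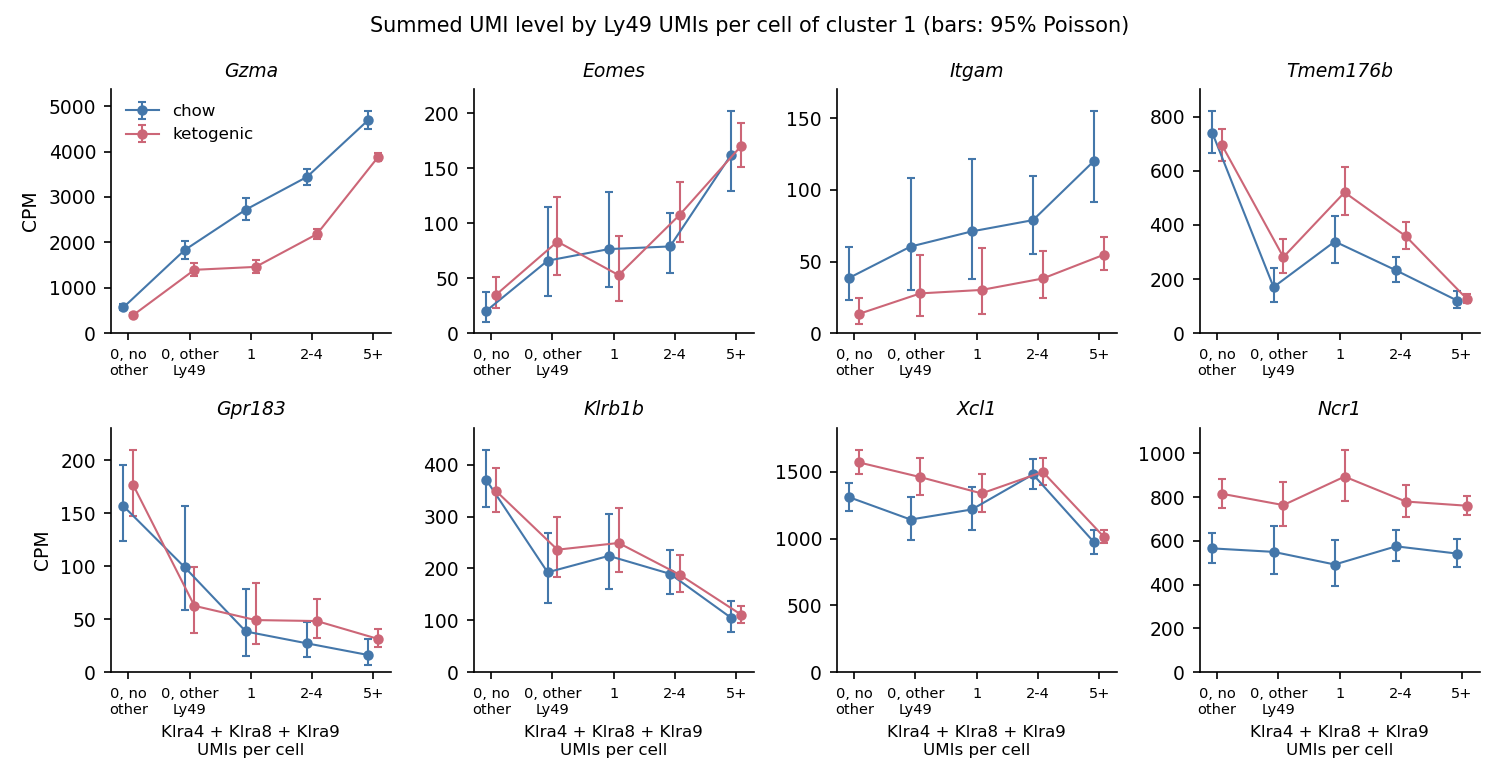
Summed level in CPM (y axes from 0) of 8 genes in cluster 1 cells split by UMIs of Klra4, Klra8 and Klra9 together, with the 0 class split by UMIs of other Klra genes (x axis), in the chow (blue) and ketogenic (red) libraries, with 95% Poisson intervals. Gzma goes from 568 to 4696 CPM and Tmem176b from 741 to 120.4 CPM on chow, while Ncr1 stays between 492 and 575 CPM. Tmem176b on chow is lower in the class with other Klra UMIs (170.4 CPM) than in the class with 1 UMI (339 CPM).

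Gzma itself split the Ly49-negative cells. In 65.6% of them on chow and 66.3% on the ketogenic diet no Gzma UMI was seen, and 23.0% and 23.6% had 2 or more. The Gzma-free cells had Tmem176b at 737 and 725 CPM against 125 and 155 CPM in cells with 2 or more, and Eomes at 11.3 and 18.7 CPM against 111 and 138 CPM. Median depth in the 2 classes was 2422.5 and 2220 UMIs on chow and 3463 and 3141.5 on the ketogenic diet. Cells with 1 Gzma UMI had medians of 2642 and 3052.5 UMIs. The part of depth in this split was not tested.

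Among Gzma-free cells alone, the contrast with Ly49-positive cells was smaller for some genes than for others. Tmem176b was 1.29 (1.06 to 1.56) times and 1.16 (1.02 to 1.33) times the Ly49-positive level, Tmem176a 1.06 (0.848 to 1.33) and 1.32 (1.11 to 1.56), and Cxcr6 1.04 (0.633 to 1.73) and 0.913 (0.685 to 1.22). Gpr183 was 3.73 (2.1 to 7.14) and 2.56 (1.82 to 3.66) times that level, Rora 4.3 (1.49 to 17) and 2.03 (1.24 to 3.41), and Il7r 2.17 (1.17 to 4.28) and 1.66 (1.04 to 2.69). At 0 Gzma UMIs the intervals of Gpr183, Rora and Il7r lay above 1 in both libraries, and that of Cxcr6 took in 1 in both. At 2 or more Gzma UMIs, with 59 and 70 Ly49-negative cells, the order was another: Cxcr6 was 5.3 (1.42 to 19.8) and 3.47 (1.47 to 7.64) times the Ly49-positive level and Tmem176b 1.99 (1.09 to 3.48) and 2.25 (1.51 to 3.29) times. There Il7r took in 1 in both libraries, at 1.63 (0.388 to 5.28) and 1.53 (0.38 to 4.56). Gpr183 was at 6.36 (2.52 to 16.4) and 1.36 (0.553 to 2.91) and Rora at 3.79 (1.51 to 9.17) and 2.18 (0.964 to 4.5), so both took in 1 on the ketogenic diet. These ratios rest on 4 to 36 UMIs in the Ly49-negative cells of a library. At 0 Gzma UMIs Eomes was 0.331 (0.0887 to 1.06) and 0.36 (0.174 to 0.699) times the Ly49-positive level.

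Between diets, few transcripts of the Ly49-negative cells differed by 2-fold, and the largest differences among genes of at least 100 UMIs were macrophage transcripts that were lower in other clusters as well. Among 2076 genes with at least 100 UMIs in these cells, 14 (0.674%) were at least 2-fold higher on the ketogenic diet and 23 (1.11%) at least 2-fold lower, with a median log2 ratio of 0.04 in both subsets. Among cells of at least 3000 UMIs, 29 genes were 2-fold higher and 23 lower, of which only 2 and 10 were among the first 14 and 23, and with minimums of 50 and 200 UMIs per gene 62 and 2 were higher and 54 and 9 lower. Of 27 immediate early and dissociation genes, 16 were higher and 11 lower, with 2 and 3 at least 2-fold and a median of 0.13. Over all genes of at least 10 UMIs, 50.7% were higher and 5.88% at least 2-fold lower, and 95% had a log2 ratio of at most 1.04. Among them the heat shock gene Hspa1a, which has a close copy that may share its reads, stood at 14.9 CPM on chow and 55.3 CPM on the ketogenic diet, 3.73-fold (1.89 to 8.18) higher, and was 8.83-fold (4.18 to 22.4) higher in Ly49-positive cells. The part of handling in the diet differences was not tested. Of the genes that set the subsets apart, Gpr183 had a log2 ratio of 0.03, Tmem176b -0.02 and Il7r -0.39. Gzma was 1.34-fold (1.2 to 1.5) lower on the ketogenic diet, Cxcr6 1.7-fold (1.22 to 2.38) higher and Itgam 2.55-fold (1.38 to 4.86) lower, with 30 UMIs on chow and 18 on the ketogenic diet. Of 17 ILC1 genes, 9 were higher and 8 lower on the ketogenic diet with a median of 0.03, and of 14 mature NK genes 7 were higher and 7 lower with a median of -0.03, against 50.7% higher over all 8195 genes of at least 10 UMIs. None of the mature NK genes was 2-fold higher, and 4 (Itga2, Itgam, Cma1 and Zeb2) were at least 2-fold lower, against 5.88% of all genes at that minimum, with 4 to 37 UMIs each in a library. Their log2 ratios were -1.06 to -1.97 in Ly49-negative and -0.24 to -1.24 in Ly49-positive cells.

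Tnfrsf9 (4-1BB), a costimulatory receptor that activated NK and T cells put on their surface, had the highest ratio among genes of at least 100 UMIs. Its level was 19.3 (10.3 to 33) CPM on chow (13 UMIs) and 91.3 (73.7 to 112) CPM on the ketogenic diet (94 UMIs), 4.73-fold (2.63 to 9.21) higher. In Ly49-positive cells it was 78.2 (62.8 to 96.4) and 93.2 (81.8 to 106) CPM, 1.19-fold (0.929 to 1.54) higher. The low value was that of the Ly49-negative chow cells, and the other 3 groups stood close together. Ly49-positive chow cells with 1 UMI of the 3 rule genes were also low, at 21.9 (5.96 to 56) CPM from 4 UMIs, against 83 (52 to 126) CPM in that class on the ketogenic diet. The difference between these ratios was not tested. UMIs came from 13 of 256 chow and 54 of 297 ketogenic cells. Without cells holding a Cd3 UMI its log2 ratio was 2.12, against 2.19 with them, and among cells of at least 3000 UMIs it had 0 UMIs in 44 chow cells and 84 in 193 ketogenic cells, at least 6.83-fold higher by the limit of 3 counts over the group.

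Serpina3g, a protease inhibitor of activated lymphocytes, stood at 60.9 (43.7 to 82.6) CPM on chow and 192 (166 to 221) CPM on the ketogenic diet, 3.16-fold (2.25 to 4.53) higher, and was 1.79-fold (1.41 to 2.3) higher in Ly49-positive cells. Pim3, a serine/threonine kinase, went from 32.7 to 80.6 CPM, Itm2a from 40.1 to 91.3 CPM, and Car2, a carbonic anhydrase, from 66.8 to 141 CPM. Lat, the adaptor of antigen-receptor signalling, Ptpn6 (the phosphatase SHP-1 that inhibitory NK receptors recruit), Vgll4, Idh3b (a subunit of mitochondrial isocitrate dehydrogenase), Ubac2, Eif3l and Snx5 had log2 ratios from 1.04 to 1.24. All 12 were also higher on the ketogenic diet in Ly49-positive cells, with log2 ratios of 0.25 to 0.88, against a median of 0.04 over all genes there. Both subsets come from the same libraries, so this is no independent evidence.

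**Figure D5:**
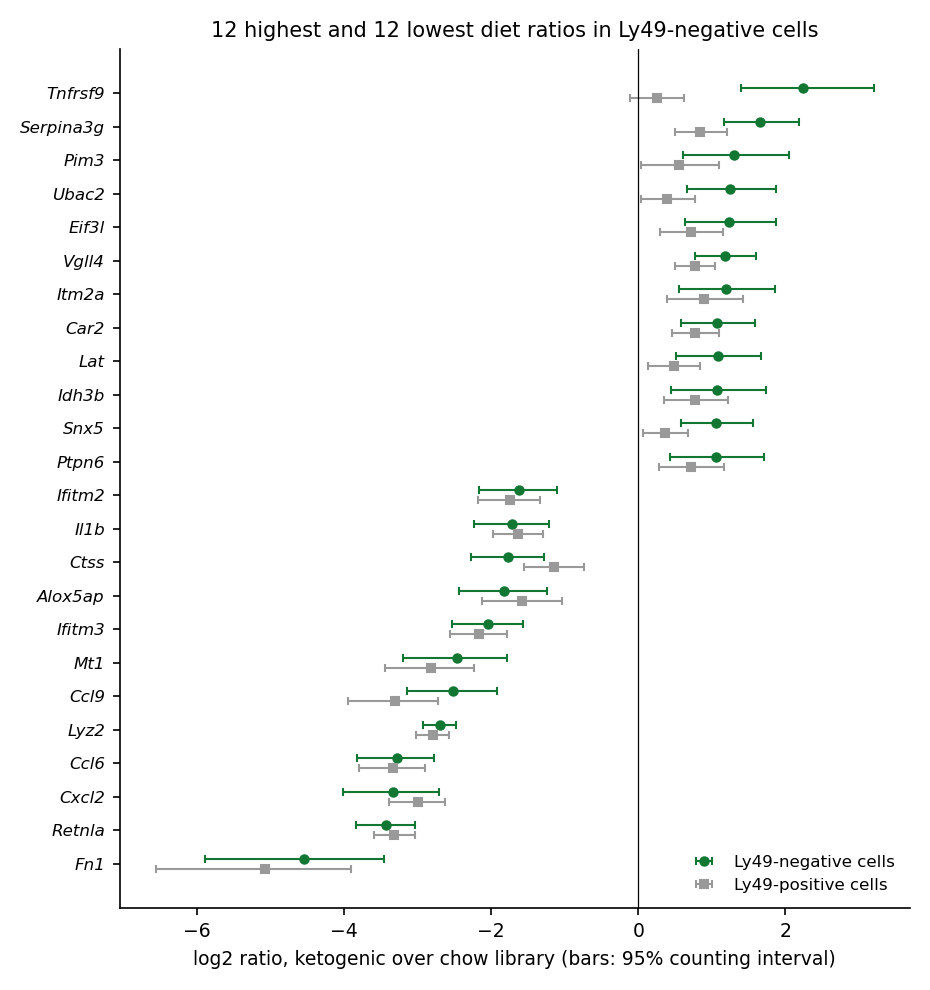
Log2 ratio of the ketogenic over the chow library (x axis) in Ly49-negative (green circles) and Ly49-positive cells (gray squares) for the 12 highest and 12 lowest genes of the Ly49-negative cells, with 95% counting intervals. Tnfrsf9 is the gene whose Ly49-positive value lies near 0, while Fn1, Retnla and Lyz2 are low in both subsets.

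Gzmb stood at 186 (155 to 221) CPM on chow and 353 (318 to 392) CPM on the ketogenic diet, 1.9-fold (1.55 to 2.35) higher, and 1.19-fold (1.08 to 1.31) higher in Ly49-positive cells. Within the ketogenic library it was uneven: 754 (651 to 869) CPM in the 69 Ly49-negative cells with a Cd3 UMI and 223 (191 to 258) CPM in the 228 without, against 178 and 187 CPM on chow. Trdc, the T cell receptor δ constant gene that NK cells also transcribe, went from 44.6 (30.1 to 63.6) to 115 (94.8 to 137) CPM, 2.57-fold (1.71 to 3.98) higher, and from 90.7 to 96.7 CPM in Ly49-positive cells. The Ly49-negative ketogenic cell with most Trdc gave 25 UMIs, 21.2% of the total. Ly49-negative cells with a Cd3 UMI had Trdc at 196 CPM on chow and 332 CPM on the ketogenic diet. Those without one had 15.9 (7.27 to 30.2) and 43.8 (30.3 to 61.2) CPM. The part of T cells in these values was not tested.

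Of 20 non-Ly49 receptors and adaptors, 14 were higher and 6 lower on the ketogenic diet, with a median log2 ratio of 0.25, close to the 0.29 of Ly49-positive cells. Ncr1 was 1.43-fold (1.26 to 1.62) higher, Cd160, a receptor for HVEM and class I molecules, 1.98-fold (1.46 to 2.73), and Klrc1 1.37-fold (1.19 to 1.58), against 1.42-fold (1.3 to 1.56), 1.99-fold (1.53 to 2.61) and 1.54-fold (1.35 to 1.75) in Ly49-positive cells. Cd7 was 1.5-fold (1.32 to 1.71) higher. Of 13 cytotoxic granule genes, 10 were higher with a median of 0.13 (0.22 in Ly49-positive cells), and of 17 retention and exit genes 14 were higher with a median of 0.20 (0.15 in Ly49-positive cells), against 50.7% higher over all genes of at least 10 UMIs. Cxcr4, the bone marrow homing receptor, was 2.06-fold (1.63 to 2.6) lower.

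Of 15 glycolysis genes, 13 were higher on the ketogenic diet in Ly49-negative cells with a median log2 ratio of 0.45, against 0.54 in Ly49-positive cells and 0.01 over all genes of at least 10 UMIs, of which 50.7% were higher. Gpi1, glucose-6-phosphate isomerase, was 1.85-fold (1.41 to 2.46) higher and Ldha, a lactate dehydrogenase subunit, 1.48-fold (1.29 to 1.71). Of 8 genes of ketone body metabolism 4 were higher, near the share of all genes, with a median of -0.01, and Oxct1, the enzyme that commits ketone bodies to energy use, had a log2 ratio of 0.04. Of 14 fatty acid oxidation genes 9 were higher, against that same 50.7%, with a median of 0.13. Cpt1a, which carries fatty acids toward mitochondria, was 4.59-fold (2.4 to 9.37) lower, and 3.04-fold (1.93 to 4.82) lower in Ly49-positive cells.

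Among genes of at least 100 UMIs, the 12 lowest on the ketogenic diet were Fn1, Retnla, Cxcl2, Ccl6, Lyz2, Ccl9, Mt1, Ifitm3, Alox5ap, Ctss, Il1b and Ifitm2, most of them macrophage or monocyte transcripts. Lyz2, the myeloid lysozyme, stood at 1283 (1199 to 1372) CPM on chow and 198 (172 to 227) CPM on the ketogenic diet, 6.48-fold (5.56 to 7.58) lower, and was 6.94-fold (5.94 to 8.13) lower in Ly49-positive cells. In cluster 4 it went from 965 to 101 CPM and in cluster 0 from 544 to 109 CPM. Fn1, fibronectin, was 23.4-fold (11 to 59.6) lower and Retnla, a product of alternatively activated macrophages, 10.8-fold (8.23 to 14.3) lower, against 33.8-fold (14.9 to 94.6) and 9.96-fold (8.24 to 12.1) in Ly49-positive cells. Single cells weighed on the level of Lyz2, since 1 cell gave 31.1% of its UMIs on chow and 60.8% on the ketogenic diet. Without that cell in each library Lyz2 stood at 906 and 78.6 CPM, 11.5-fold (9.12 to 14.8) lower on the ketogenic diet, and without all cells over 1% myeloid UMIs at 511 and 74.7 CPM, 6.84-fold (5.31 to 8.91) lower. Without those cells 16 genes were at least 2-fold lower on the ketogenic diet, 14 of them among the 23. Of 9 macrophage or monocyte markers all 9 were lower and 8 at least 2-fold, against 5.88% of all genes of at least 10 UMIs, with a median log2 ratio of -2.69 in Ly49-negative and -2.48 in Ly49-positive cells. In cluster 6 the summed level of the whole marker list was 2326 CPM on chow and 1996 CPM on the ketogenic diet, a smaller difference than in clusters 0 and 4 (1194 and 231 CPM in cluster 0). These values stand beside the genes above, and the part of free RNA in the droplets was not tested.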

How the data were processed

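The authors deposited raw UMI counts per gene and cell, whole numbers that were not normalised, per the file headers and values, and a table of cluster numbers at resolution 0.5, which was used as given. Cell Ranger, Seurat and the genome build mm10 are named in the submitters' processing notes, without their roles. The settings behind the cluster table other than its resolution, the filter on cells and any doublet removal are not given in the sources used here, and no doublet caller was run. Counts were summed over the cells of a group in each library with Python 3.11.15, numpy 2.4.6, scipy 1.17.1 and pandas 2.3.3. Log2 ratios of CPM had 0.5 added to each count, and genes needed 100 UMIs over the cells compared, or 10 in gene lists. With 1 library per diet no p-value was computed. Intervals are 95% Clopper-Pearson for shares and exact Poisson or exact conditional for levels and folds, and cover counting error only. With 0 UMIs the limit was 3 counts over the group. Shares of cells with a UMI were also thinned to 1000 UMIs per cell by exact expectation, and no cell had fewer. The summing and thinning steps were tested on simulated data. Named genes were the 12 highest and 12 lowest log2 ratios of each comparison, by the ratio nearer 0 where both libraries had to agree, and the 15 highest against other clusters, leaving out Klra, mitochondrial, immunoglobulin, T cell receptor and unnamed genes. Genes of the lists and markers were named as well. A few genes that these rules name are not reported here. The cells, lists and markers were chosen with earlier results of these data known. Positions come from GENCODE M21 on GRCm38, which held 28339 of 28692 gene IDs, and promoters from RefSeq on GRCm38.p6. Alternatives covered gene and cell minimums, scaling, the Ly49 rule, cells with Cd3 UMIs and free RNA. The removal of cells over 1% myeloid UMIs or of the cell with most UMIs of a gene, and free RNA in the subset comparison, were added after seeing the data.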

Additional observations from a re-analysis of the deposited data

Results flagged for a closer look

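Of 4864 genes, 2 were past 2-fold in opposite directions between Ly49-negative and Ly49-positive cells in the chow and ketogenic libraries, with counting intervals clear of no difference in each. With 1 library per diet the difference between the libraries was not tested. Gzmc, granzyme C, which is known from ILC1s and from activated killer cells, had a log2 ratio of -5.33 on chow and 1.72 on the ketogenic diet, the former set by the 0.5 added to a count of 0. On chow it had 0 UMIs in Ly49-negative cells and 33 in Ly49-positive cells, at least 6.59-fold higher there. On the ketogenic diet it had 81 UMIs against 61, 3.31-fold (2.34 to 4.69) higher in Ly49-negative cells. A single cell gave 26 of the 33 chow UMIs, and 1 cell gave 31 of the 81 ketogenic ones, which came from 15 cells in all. Without these cells the counts were 0 against 7 on chow, at least 1.4-fold higher in Ly49-positive cells by the limit of 3 counts but with a counting interval of the ratio that took in 1 (Ly49-negative over Ly49-positive 0 to 1.16), and 50 against 61 on the ketogenic diet, 2.05-fold (1.38 to 3.03) higher in Ly49-negative cells. Without that chow cell Gzmc thus stayed lower in Ly49-negative cells on chow, but within counting error. Between diets the Ly49-negative level was at least 17.7-fold higher on the ketogenic diet, and at least 10.9-fold without the ketogenic cell with most UMIs. A few cells gave 80.2% of these ketogenic UMIs. In Ly49-positive cells the ketogenic level of Gzmc was 0.811 (0.522 to 1.28) times the chow level. Arl10, a small GTPase gene of the ARF-like family, had a log2 ratio of 1.86 on chow, with 18 UMIs against 8, and of -1.17 on the ketogenic diet, with 11 against 64.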

How the results depend on the processing

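The ratio of Ly49-negative shares of cluster 1 kept its direction in every alternative run. The shares on chow and the ketogenic diet were 45.8% and 31.5% in cells of at least 3000 UMIs, 25.6% and 20.2% with 0 UMIs of every Ly49 gene, 46.8% and 35.8% with at most 1 UMI of the 3 genes, and 48.2% and 41.7% thinned to 1000 UMIs. Of all clustered cells they were 1.72% on chow at 3000 UMIs with a ratio of 3.02, 4.15% and 3.85% with every Ly49 gene, 7.60% and 6.84% with at most 1 UMI, and 7.83% and 7.96% thinned, so the ratio between diets turned upward at 3000 UMIs and, within counting error, when thinned (1.02). Genes 2-fold higher in Ly49-negative than Ly49-positive cells, 17 as reported, were 28 and 10 at minimums of 50 and 200 UMIs and 47 with 10% free RNA subtracted. The 26 lower genes became 45, 16 and, at 3000 UMIs per cell, 14. Genes higher on the ketogenic diet, 14 as reported, were 62 and 2 at minimums of 50 and 200, 29 at 3000 UMIs per cell and 8 with every Ly49 gene. The 23 lower genes became 54 and 9. Of the 29, 2 were among the first 14. No named gene changed sign in 684 values, and 9 of 58 list medians did, each from a reported median of at most 0.0743 in size. Of these values 71 moved beyond counting error or, for a list median, by over 0.1, and of the shares and counts of genes above, 28 moved and 45 did not. No paired analysis was possible because each diet has 1 library, and for the same reason no replicate could be left out. At 2440 and 3333 UMIs per cell, genes under about 10 CPM rest on under 10 UMIs in a library and are poorly measured.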

Other observations

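Of 22 genes of the interferon response with at least 10 UMIs, 11 were higher in Ly49-negative than in Ly49-positive cells in both libraries, 2 lower in both and 9 mixed, against 29.2% higher and 26.1% lower over all genes, with none 2-fold apart in both and median log2 ratios of 0.22 on chow and 0.23 on the ketogenic diet, against 0.00 and 0.02 over all genes at that minimum. Ly6e, an abundant surface protein of this list, had ratios of 0.33 and 0.34, and Irf7 of -0.90 and -0.68. Between diets 10 of 19 were higher in Ly49-negative cells, near the 50.7% of all genes, with a median of 0.01.

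Of 15 cell cycle genes, 9 were higher in Ly49-negative cells in both libraries and 1 lower, against 29.2% and 26.1% of all genes, with medians of 0.47 and 0.16, but Mki67, the proliferation marker, had only 4 and 3 UMIs. Between diets 3 of 10 were higher, against 50.7% of all genes, with a median of -0.29 in Ly49-negative and 0.05 in Ly49-positive cells. Of 28 immediate early and dissociation genes, 13 were higher in both libraries and 5 lower, with medians of 0.08 and 0.09, against the same 29.2% and 26.1%. With the same shares over all genes, 5 of 9 ketone body genes were higher in both libraries and 2 lower, 5 and 5 of 18 fatty acid oxidation genes, and 6 and 5 of 16 glycolysis genes. Of 13 chemokines and cytokines 9 were higher on the ketogenic diet in Ly49-negative cells, against 50.7% of all genes, with a median of 0.28 against -0.09 in Ly49-positive cells, and of 16 cytokine receptors 8 were higher, and of 21 lineage transcription factors 10, both near that share. Genes on the sex chromosomes, 4 with at least 10 UMIs, were split between the directions in both comparisons.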
